A study of Mus musculus with 12 samples.

Results

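The genes of fatty acid and triglyceride synthesis were followed across 12 RNA-seq libraries of mouse brown adipose tissue, the heat-producing fat depot. The set is 32 genes fixed by name: enzymes that supply cytosolic acetyl-CoA, build fatty acids, desaturate them, supply NADPH or assemble triglycerides, and the regulators Mlxipl and Thrsp. All 32 were found among the 24197 genes of the deposited table, and all 32 were among the 15265 genes with enough counts to be tested.

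The libraries came from mice 8 to 10 weeks old, housed at room temperature or at 4 °C for 1 week, with 3 libraries in each of 4 groups. Controls were Adipoq-Cre- with the genotype Ebf2 fl/fl, and mutants were Adipoq-Cre+ with the same Ebf2 fl/fl alleles, so floxed copies of Ebf2, which encodes a transcription factor of brown fat identity, were present in every animal and only Cre differed. Adipoq-Cre is driven by the adiponectin promoter and acts in adipocytes, while the tissue also holds vessel, immune and other cells that keep the gene. The labels do not say that the numbered libraries of a group came from separate animals, so p-values here measure the spread between these libraries, which may be technical. Between 2 libraries of a group, chi-square per degree of freedom over genes ran from 38.2 to 234. Whether this spread lies between animals or between preparations was not tested.

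The targeted gene did not separate the room temperature groups. Ebf2 was at 47.4, 64.1 and 32 CPM (counts per 1000000 counts of the library, whose total is scaled by TMM factors that adjust for composition) in room temperature controls and at 65.2, 45.7 and 38.3 CPM in libraries labelled mutant. In the cold it was at 52.3, 42.2 and 41.6 CPM in controls and 28.7, 21.6 and 27.0 CPM in libraries labelled mutant. The cold groups did not overlap, with a log2 fold change of -0.82 ± 0.25 (standard error, SE, as after every log2 fold change below; adjusted p = 0.153), and the room temperature groups did, with 0.06 ± 0.25 (adjusted p = 0.931). The labels do not say which exons are floxed, and a count over the whole gene also takes reads from other exons and other cells. The groups are therefore called libraries labelled mutant throughout.

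Library totals ran from 25835650 to 37927038 counts. The 8 genes of brown adipocytes summed to between 14919 and 28728 CPM over the 12 libraries, and 7 macrophage genes summed to between 102 and 369 CPM. The heat-producing carrier Ucp1 stood at 2684, 5617 and 5059 CPM in room temperature controls and 2019.8, 718 and 1186 CPM in libraries labelled mutant (log2 fold change -1.77 ± 0.39, adjusted p = 0.0199). Between genotypes at room temperature, 1 of the 8 brown adipocyte genes was higher and 1, Ucp1, lower at an adjusted p below 0.05 in edgeR. The median log2 fold change of the 8 was 0.17. Over all genes tested, 3.92% were higher and 2.32% lower. Some libraries stood apart. The 12 skeletal muscle genes took from 0.00058% of counts in mutant cold library 1 to 2.52% in control room temperature library 1, and the 4 libraries richest in them were control room temperature libraries 1 and 3, mutant room temperature library 3 and control cold library 3. The 6 lens genes summed to between 78.1 and 350 CPM in room temperature controls, between 0.649 and 1.19 CPM in room temperature libraries labelled mutant, and between 54.2 and 100.1 CPM in the cold groups. Lep and Retn, genes enriched in white fat, summed to between 124 and 262 CPM in room temperature controls and between 790 and 921 CPM in room temperature libraries labelled mutant. By the same threshold 1 of these 2 genes was higher. Epithelial genes summed to 246 CPM in mutant cold library 3 and to at most 24.5 CPM elsewhere. That library also stood apart in its brown adipocyte genes, which summed to 16283 CPM against 27953 and 28728 CPM in the rest of its group, with Ucp1 at 5867 CPM against 10971 and 11675 CPM. It was the lowest of its group for 10 of the 32 genes. The part of these marker genes in the results below was not tested. In bulk tissue, fewer cells of a type and less RNA per cell cannot be told apart.

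Fatty acid synthesis turns cytosolic acetyl-CoA into long saturated chains. Acly makes acetyl-CoA from citrate, Acss2 from acetate, Acaca and Acacb carboxylate it to malonyl-CoA, and Fasn builds palmitate with electrons from NADPH, which malic enzyme and the pentose phosphate pathway supply. Scd enzymes put the first double bond into the chain and Fads enzymes further ones, and the glycerol phosphate pathway (Gpam, Agpat, Lpin and Dgat enzymes) joins the chains to glycerol. Mlxipl encodes ChREBP, a glucose-responsive activator of these genes, and Thrsp encodes Spot14, a small protein that promotes lipid synthesis. Brown fat is known to make fatty acids while it burns them, and in cold the pathway is known to be active together with heat production.

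Promoters of these genes are known for boxes read by NF-Y, a CCAAT-binding factor that acts with the sterol-responsive activators called SREBPs. RefSeq promoters (GRCm38.p6, 250 bases before to 50 bases after the start, 300 bases in all) were matched by symbol for 26 of the 32 genes, 34 promoters in all. Windows of 120 bases that end just before the start are given for 4 genes. Fasn, Acss2 and Mogat1 had groups that separated with cold in opposite directions in the genotypes. Thrsp had the second highest level per length. Capitals mark CCAAT or its reverse complement ATTGG. The windows lie at chr11:120824548-120824667 on the minus strand, chr7:97417551-97417670 on the minus strand, chr2:155517923-155518042 on the plus strand and chr1:78510940-78511059 on the plus strand, and each is written 5′ to 3′ on the strand of its gene.
Fasn: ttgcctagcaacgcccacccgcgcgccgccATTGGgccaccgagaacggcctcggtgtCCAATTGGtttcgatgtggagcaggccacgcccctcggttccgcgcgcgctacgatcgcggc
Thrsp: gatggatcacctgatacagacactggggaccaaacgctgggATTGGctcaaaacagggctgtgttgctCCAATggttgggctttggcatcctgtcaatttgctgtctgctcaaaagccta
Acss2: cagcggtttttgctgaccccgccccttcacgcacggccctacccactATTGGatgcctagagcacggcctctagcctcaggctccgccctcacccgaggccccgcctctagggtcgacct
Mogat1: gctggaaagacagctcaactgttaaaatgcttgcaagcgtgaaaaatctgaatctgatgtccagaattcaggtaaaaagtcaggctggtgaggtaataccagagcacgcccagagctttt
In the Fasn window the CCAAT and ATTGG boxes nearest the start overlap each other. The Mogat1 window holds neither form, but its promoter holds ATTGG outside the window, from base 25 after the start. No window is given for Acaca, whose groups also separated with cold in opposite directions in the genotypes.

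Over the whole 300 bases, CCAAT on either strand was in 15 of the 34 member promoters (44.1%), against 37.4% of all 32851 promoters. The E-box CACGTG was in 3 of 34 (8.82%, Lpin2, Lpin3 and Mlxipl) against 7.15%. The EBF-type site CCCNNGGGA was in 3 of 34 (8.82%, Agpat1, Lpin2 and Mlxipl) against 6.56%. The sterol response element TCACNCCAC was in 1 of 34 (2.94%, Mlxipl) against 1.24%. Both strands were read, and matches of different motifs were counted separately where they overlapped. These shares describe letters in the windows and were not tested.

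Together the 32 genes took a large part of each library. Their share of all counts was 4.1 to 7.26% in room temperature controls (5.86 ± 1.61, SD, n = 3), 10.4 to 14.5% in room temperature libraries labelled mutant (12.3 ± 2.07), 7.63 to 10.0% in cold controls (8.97 ± 1.22) and 6.24 to 8.77% in cold libraries labelled mutant (7.68 ± 1.3). Room temperature libraries labelled mutant were the highest group and room temperature controls the lowest, and neither overlapped with cold controls. Cold libraries labelled mutant overlapped with cold controls and with room temperature controls. Scd1 alone took 2.59 ± 0.914%, 5.72 ± 1.25%, 2.83 ± 0.513% and 2.77 ± 0.523% in the same order of groups, and Fasn took 1.26 ± 0.471%, 3.25 ± 0.49%, 2.83 ± 0.606% and 1.95 ± 0.51%. Without Scd1 the share was 3.27 ± 0.911%, 6.56 ± 0.846%, 6.14 ± 0.711% and 4.91 ± 0.847%, so most of the gap between cold controls and room temperature libraries labelled mutant was Scd1. These shares were not tested.

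**Figure D1:**
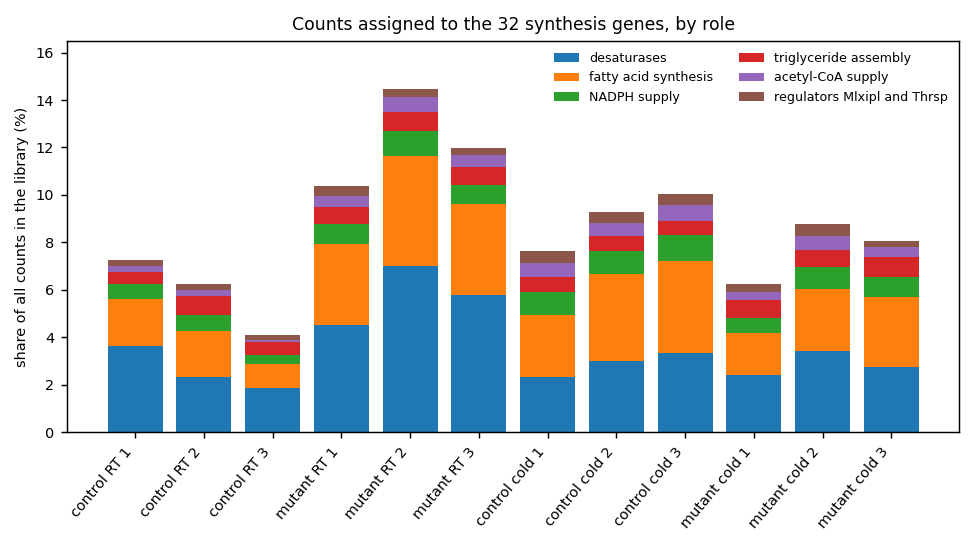
Share of all counts in each library (percent, vertical axis) assigned to the 32 synthesis genes, stacked by role, for the 12 libraries. The 3 room temperature libraries labelled mutant reach 10.4 to 14.5%, all other libraries lie between 4.10 and 10.0%, and desaturases and fatty acid synthesis make up most of every bar.

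At room temperature, 14 of the 32 genes were higher in libraries labelled mutant than in controls and 0 were lower. Called here means an adjusted p below 0.05 in edgeR's quasi-likelihood test with Benjamini-Hochberg adjustment over all 15265 genes. By the same rule 3.92% of all genes tested were higher and 2.32% lower. Whether the libraries of compared groups overlap is given for genes below as a description. The share of all genes without overlap was not counted for any single comparison. The median log2 fold change was 0.71 over the 32 genes and -0.04 over all genes. At an unadjusted p under 0.05, 20 of the 32 were higher and 2 lower, against 3067 of all 15265 genes in either direction. DESeq2 and limma-voom also called 0 of the 32 lower, against 650 of 19595 and 1196 of 15265 genes. With the replicate number as a block, 13 of the 32 were called. By role, the genes that rose were 3 of 3 for acetyl-CoA supply, 2 of 3 for fatty acid synthesis, 4 of 7 desaturases, 2 of 5 for NADPH supply, 3 of 12 for triglyceride assembly and 0 of 2 for Mlxipl and Thrsp (1 of the 2 at an unadjusted p under 0.05).

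All of the acetyl-CoA genes rose. Acly, ATP citrate lyase, was at 1681, 1749.9 and 651 CPM in controls and 3383, 4473 and 3977 CPM in libraries labelled mutant (2.9-fold, log2 fold change 1.54 ± 0.36, adjusted p = 0.0249). Acss2, the acetyl-CoA synthetase of the cytosol and nucleus, was at 421, 463 and 230.0 CPM against 964, 1571 and 1036 CPM (1.68 ± 0.27, adjusted p = 0.00392). Aacs, which activates the ketone body acetoacetate, was at 216, 158 and 166 CPM against 473, 512 and 501 CPM (1.46 ± 0.22, adjusted p = 0.00275). The groups did not overlap for any of these genes, Aacs varied little among libraries labelled mutant, and control library 3 was lowest for Acly and Acss2.

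The synthase and the cytosolic carboxylase rose by similar amounts. Fasn was at 14623, 13747 and 6448 CPM in controls and 27714, 39468 and 32165 CPM in libraries labelled mutant (2.85-fold, 1.51 ± 0.33, adjusted p = 0.0183). Acaca was at 2218, 2473 and 948 CPM against 3948, 6280.0 and 5706 CPM (1.5 ± 0.33, adjusted p = 0.0187). Control library 3 was the lowest for both, and the lowest library labelled mutant was above the highest control. Acacb, the carboxylase bound to the outer mitochondrial membrane, whose malonyl-CoA is known to restrain fatty acid oxidation, had overlapping groups of 1286, 2150.2 and 1449 against 1263, 2171 and 2115 CPM (0.18 ± 0.26, adjusted p = 0.766).

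Among the desaturases, Scd1, the most abundant gene of the set, was at 33285, 21464 and 16721 CPM in controls and 43162, 72241 and 59888 CPM in libraries labelled mutant (2.45-fold, 1.29 ± 0.30, adjusted p = 0.0259). Scd2, a closely related delta-9 desaturase, was at 95.2, 134 and 55.2 CPM against 239, 307 and 348 CPM (1.65 ± 0.27, adjusted p = 0.00422), and Scd3, a scarce member of the family, at 4.22, 3.52 and 1.86 CPM against 6.52, 11.4 and 9.62 CPM (1.52 ± 0.34, adjusted p = 0.0199). None of these 3 overlapped between the groups. Fads3, a Fads family member that acts on sphingoid bases, was at 98.5, 35.8 and 32.4 CPM in controls and 188, 199 and 187 CPM in libraries labelled mutant (1.78 ± 0.42, adjusted p = 0.0311). Its 3 mutant libraries lay close together, and control library 1 was well above the other controls. With the replicate number as a block, the adjusted p of Fads3 was 0.068. Fads1, the delta-5 desaturase, did not overlap between groups but was not called (0.84 ± 0.28, adjusted p = 0.11), and Fads2 and Scd4 overlapped (0.45 ± 0.34 and 1.38 ± 0.51).

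Of the NADPH suppliers, Me1, cytosolic malic enzyme, was at 1159.9, 523 and 401 CPM in controls and 1835, 2810.5 and 2053 CPM in libraries labelled mutant (1.68 ± 0.35, adjusted p = 0.0158). Pgd, the second NADPH-producing enzyme of the pentose phosphate pathway, was at 512, 451 and 264 CPM against 635, 944 and 884 CPM (1.01 ± 0.25, adjusted p = 0.0353, or 0.0559 with the replicate block). Both had groups that did not overlap. G6pdx, which opens the pentose phosphate pathway, and Tkt and Taldo1, of its non-oxidative arm, had log2 fold changes of 0.60 ± 0.19, 0.60 ± 0.29 and 0.42 ± 0.26 and were not called (adjusted p = 0.095, 0.267 and 0.415).

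Triglyceride assembly was divided by isozyme. Mogat1, a monoacylglycerol acyltransferase, had the smallest p of the set at 10.3, 8.79 and 7.98 CPM in controls and 27.2, 34.5 and 27.9 CPM in libraries labelled mutant (3.3-fold, 1.72 ± 0.15, adjusted p = 0.000245). Agpat2, the main acylglycerolphosphate acyltransferase of fat, was at 879.5, 1247 and 823 CPM against 1800.0, 2077 and 2228 CPM (1.05 ± 0.18, adjusted p = 0.00504), and Dgat1, of the final acylation, at 349, 408 and 385 CPM against 540.4, 593 and 555 CPM (0.56 ± 0.13, adjusted p = 0.0199). The rise of Dgat1 was the smallest of the 14, with little spread in either group. Lpin1, a phosphatidate phosphatase, was at 412, 504 and 416 CPM against 638, 723 and 663 CPM and missed the threshold (0.60 ± 0.17, adjusted p = 0.052, or 0.0392 with the replicate block). The other 8 assembly genes had log2 fold changes from -0.58 (Agpat3) to 0.34 (Dgat2), and Dgat2, the more abundant acyltransferase of the last step, overlapped at 1766, 3884 and 2198 against 3014, 3828 and 3060.3 CPM.

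Mlxipl and Thrsp were not called at room temperature. Mlxipl was at 248, 189 and 274 CPM in controls and 253, 171 and 179.6 CPM in libraries labelled mutant (-0.24 ± 0.29, adjusted p = 0.728). The Thrsp groups did not overlap, at 2332, 2058 and 1454 against 3614, 3605 and 3078 CPM (0.82 ± 0.28, adjusted p = 0.119).

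The number of room temperature calls changed with the libraries used. Control library 3 was the lowest control for 19 of the 32 genes, and mutant library 2 was the highest of its group for 23. The count of 14 was 5 without mutant library 2, and 6 without control library 3 or without mutant library 3. Over all genes these fits called 460, 395 and 497, against 952 in the full fit. Acss2, Aacs, Scd2, Agpat2 and Mogat1 were called in all 12 fits that left out 1 library. Leaving out the 4 muscle-rich libraries leaves control library 2 alone in its group, assumed to vary like the other groups. In that fit all 14 genes kept their sign, and their median log2 fold change was 1.32 against 1.51.

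**Figure D2:**
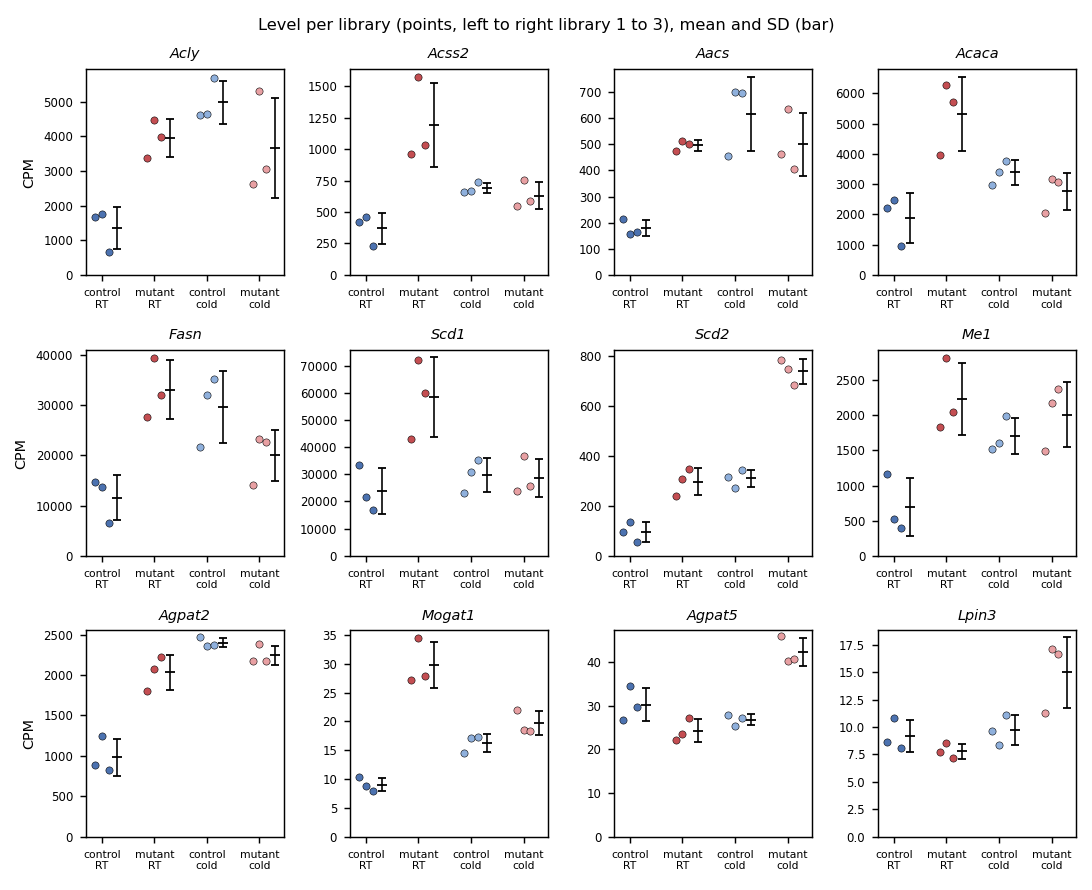
Levels of 12 of the synthesis genes in every library (CPM, vertical axes, each from 0) by group; points are libraries 1 to 3 from left to right, and bars are the mean and SD of 3. By group mean, Fasn and Acaca are lowest in room temperature controls and highest in room temperature libraries labelled mutant, while Scd2, Agpat5 and Lpin3 are highest in cold libraries labelled mutant. Single Fasn libraries overlap between some of the groups.

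Few of these genes were called between genotypes in the cold. Of the 32, 2 were higher in libraries labelled mutant and 0 lower, against 0.727% higher and 0.393% lower over all genes, and the median log2 fold change was 0.15 against -0.01. At an unadjusted p under 0.05, 10 were higher and 2 lower, against 2343 of all 15265 genes in either direction. DESeq2 called 5 higher and 0 lower, against 483 and 234 of 19595 genes. For limma-voom these were 5 and 1, against 672 and 447 of 15265 genes. Scd2 was at 316, 272 and 343 CPM in cold controls and 785, 750.0 and 687 CPM in cold libraries labelled mutant (2.39-fold, 1.25 ± 0.26, adjusted p = 0.0492). Agpat5, a mitochondrial acylglycerolphosphate acyltransferase, was at 27.9, 25.3 and 27.1 CPM against 46.1, 40.3 and 40.6 CPM (0.66 ± 0.13, adjusted p = 0.0346). Neither gene overlapped between the groups, yet both calls sat near the threshold: over the 12 fits that left out 1 library, Scd2 was called in 2 and Agpat5 in 4, and the count was 0 whenever a library of the cold groups or mutant room temperature library 2 was left out. It was 1 without mutant room temperature library 1 or 3 or control room temperature library 1 or 3. Over all genes, the fits with a count of 0 called 28 to 133, against 171 in the full fit. Without the 4 muscle-rich libraries, the median log2 fold change of the 2 genes was 1.00 against 0.96 in the full fit.

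Several genes called at room temperature did not separate in the cold. Fasn was at 21687, 32017 and 35323 CPM in cold controls and 14133, 23267 and 22641 CPM in cold libraries labelled mutant (-0.57 ± 0.32, adjusted p = 0.429). Scd1 was at 23017, 30732 and 35311 against 23689, 36588 and 25748 CPM (-0.05 ± 0.30), and Fads3 at 25.1, 52.7 and 40.5 against 34.7, 44.2 and 57.8 CPM (0.21 ± 0.41). These groups overlapped. Dgat2 did not overlap, with 1535, 1597 and 1537 CPM in cold controls and 2731, 2455 and 3290.1 CPM in cold libraries labelled mutant, and was not called (0.86 ± 0.26, adjusted p = 0.143). Lpin2 was nearest to a call among the rest (19.4, 20.4 and 17.5 against 28.0, 28.8 and 26.2 CPM, 0.53 ± 0.12, adjusted p = 0.0592). All 3 acetyl-CoA genes and all 3 of fatty acid synthesis had negative log2 fold changes, from -0.57 to -0.13, and 10 of the 12 assembly genes had positive ones.

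**Figure D3:**
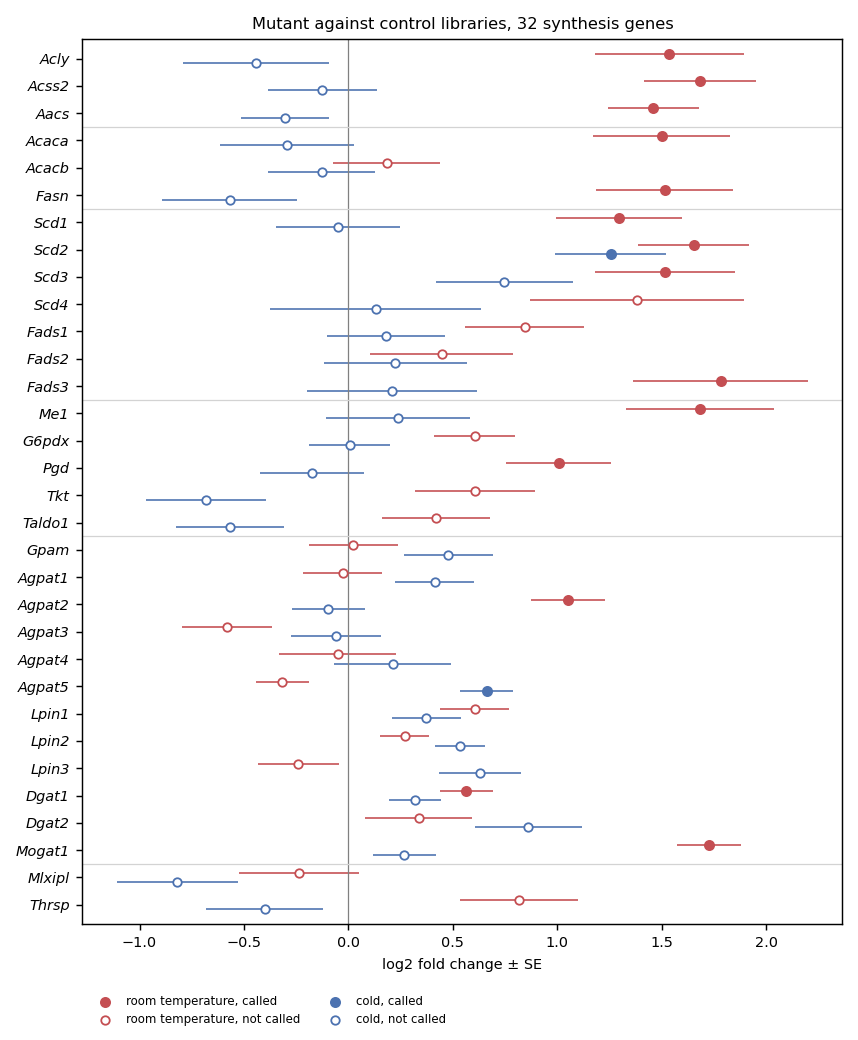
Log2 fold change of libraries labelled mutant against controls (horizontal axis, point with SE) for each of the 32 genes, at room temperature and in the cold; filled points are called at adjusted p below 0.05. At room temperature 14 points are filled, all above 0, and in the cold only those of Scd2 and Agpat5.

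In controls, 1 week of cold raised 13 of the 32 genes and lowered 0, against 4.31% of all genes higher and 2.31% lower. The median log2 fold change was 0.77 against -0.01 over all genes. At an unadjusted p under 0.05, 18 were higher and 1 lower, against 3609 of all 15265 genes in either direction. DESeq2 called 16 higher and 1 lower, against 1072 and 877 of 19595 genes. For limma-voom these were 20 and 1, against 1928 and 1474 of 15265 genes. With the replicate block, 11 of the 32 were called. By role, 4 of 5 NADPH suppliers rose, 2 of 3 for acetyl-CoA supply, 1 of 3 for fatty acid synthesis, 1 of 7 desaturases, 3 of 12 assembly genes, and both Mlxipl and Thrsp. The 3 room temperature control libraries served as the reference here and in the room temperature genotype comparison, so values that both comparisons give for a gene are not independent.

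Cold brought Acly to 4608, 4655 and 5699 CPM from its 1681, 1749.9 and 651 CPM (3.67-fold, 1.87 ± 0.36, adjusted p = 0.0118) and Aacs to 454, 699 and 698 CPM (1.78 ± 0.22, adjusted p = 0.00147). Fasn rose by 1.35 ± 0.33 (adjusted p = 0.0308). None of these overlapped between temperatures. Acss2 and Acaca did not overlap either, and were not called (0.89 ± 0.26, adjusted p = 0.0646, or 0.0394 with the replicate block, and 0.85 ± 0.32, adjusted p = 0.136).

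Most of the pentose phosphate and malic enzymes rose in cold controls. Pgd was at 1271, 1250.2 and 1519 CPM in cold controls, a 3.29-fold rise (1.72 ± 0.26, adjusted p = 0.00353), and G6pdx was at 385, 385 and 423 CPM against 244, 194 and 143 CPM at room temperature (1.04 ± 0.20, adjusted p = 0.0108). Taldo1 was at 1419.7, 1529 and 1454 against 893, 677 and 649.6 CPM (0.99 ± 0.26, adjusted p = 0.0445). Me1 rose by 1.30 ± 0.35 (adjusted p = 0.0483, or 0.0718 with the replicate block). Tkt had groups that did not overlap and was not called (0.85 ± 0.29, adjusted p = 0.0981).

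Of the desaturases only Scd2 was called in cold controls, at 316, 272 and 343 CPM against 95.2, 134 and 55.2 CPM (3.27-fold, 1.71 ± 0.27, adjusted p = 0.00445). Scd1 overlapped between temperatures (0.32 ± 0.30, adjusted p = 0.556). The difference between the responses of Scd2 and Scd1 was not tested. In triglyceride assembly, Agpat2 rose to 2466, 2361 and 2369 CPM (1.29 ± 0.18, adjusted p = 0.00231), Mogat1 to 14.5, 17.2 and 17.3 CPM (0.85 ± 0.15, adjusted p = 0.00789) and Lpin2 to 19.4, 20.4 and 17.5 CPM (0.44 ± 0.12, adjusted p = 0.0488, or 0.0696 with the replicate block). Dgat2 was lower in every cold control than in every room temperature control, and was not called (-0.75 ± 0.26, adjusted p = 0.101).

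Mlxipl and Thrsp rose with cold in controls. Mlxipl went from 248, 189 and 274 to 448, 550.1 and 569 CPM (1.14 ± 0.29, adjusted p = 0.0384, or 0.0573 with the replicate block). Thrsp went from 2332, 2058 and 1454 to 4799.7, 4033 and 4221 CPM (1.16 ± 0.28, adjusted p = 0.0328). Neither overlapped between temperatures, and the calls of Mlxipl, Thrsp, Me1, Taldo1 and Lpin2 were kept in at most 4 of the 12 fits that left out 1 library.

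Aacs, Scd2, Pgd, Agpat2 and Mogat1 kept their call in all 12 of those fits. The count of 13 was 5 without control cold library 3, 7 without control room temperature library 3 or control cold library 2, and 8 without control room temperature library 2, control cold library 1, mutant room temperature library 2 or 3, or mutant cold library 1. Over all genes, 1010 were called in the full fit and 313 without control cold library 3. Without control room temperature library 3 or control cold library 2 these were 396 and 324. The fits with a count of 8 called 414 to 863 of all genes. Without the 4 muscle-rich libraries all 13 genes kept their sign, with a median log2 fold change of 1.13 against 1.29 in the full fit.

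In libraries labelled mutant, cold split the set. Of the 32 genes 7 rose and 5 fell, against 10.0% and 7.42% of all genes, and the median log2 fold change was -0.03 against -0.01. Of the 7 that rose, 6 belong to triglyceride assembly and the other is Scd2. Of the 5 that fell, 3 are desaturases, with Acss2 and Mogat1. No gene of NADPH supply or of malonyl-CoA and palmitate synthesis was called in edgeR (0 of 5 and 0 of 3). There 1 and 2 had an unadjusted p under 0.05, against 4713 of all 15265 genes. DESeq2 called Acaca, and limma-voom Acaca and Fasn, all lower, against 1492 of 19595 and 2396 of 15265 genes called lower. This comparison uses the same 3 room temperature libraries labelled mutant as the room temperature genotype comparison. Genes of endothelial cells moved here as well: 3 of 6 were called higher and 0 lower, with a median log2 fold change of 0.59. They summed to between 549 and 711 CPM at room temperature and between 909 and 947 CPM in the cold. In cold controls 1 of the 6 was called higher, with a median of 0.46. None of the 6 was at 0, and their part in the result was not tested.

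The assembly genes that rose catalyse steps of the glycerol phosphate pathway before the final acylation. Gpam, the mitochondrial enzyme that adds the first acyl chain, was at 235, 399 and 363 CPM at room temperature and 596, 551 and 543 CPM in the cold (0.76 ± 0.21, adjusted p = 0.0284). Agpat3 was at 358, 458 and 475 against 853, 825 and 866 CPM (1.97-fold, 0.98 ± 0.22, adjusted p = 0.00952), and Agpat1 at 131, 173 and 176 against 249, 229.6 and 338 CPM (0.77 ± 0.19, adjusted p = 0.0164). Both enzymes add the second chain. Agpat5 was at 22.2, 23.4 and 27.3 against 46.1, 40.3 and 40.6 CPM (1.74-fold, 0.80 ± 0.13, adjusted p = 0.00153). The phosphatidate phosphatases Lpin2 and Lpin3 were at 16.3, 16.1 and 18.5 against 28.0, 28.8 and 26.2 CPM and 7.69, 8.54 and 7.14 against 11.3, 17.1 and 16.7 CPM (0.71 ± 0.12 and 0.95 ± 0.20, adjusted p = 0.00207 and 0.00669). The groups overlapped for none of the 6, which is a description, as the share over all genes was not counted.

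Scd2 rose again, from 239, 307 and 348 to 785, 750.0 and 687 CPM (2.49-fold, 1.31 ± 0.27, adjusted p = 0.00573), and was the only gene of the set called in all 4 comparisons. Lpin2 and Scd2 were the 2 genes called higher in the cold in both genotypes. The shares of all genes called in both, or in all 4 comparisons, were not counted. The 2 cold comparisons share no library but share an estimate of the spread. The call of Lpin2 in cold controls was kept in 1 of the 12 fits that left out 1 library. Scd1 fell by 1.03 ± 0.30 on the log2 scale, from 43162, 72241 and 59888 to 23689, 36588 and 25748 CPM (adjusted p = 0.0358). Fads3 fell by 2.07 ± 0.42, from 188, 199 and 187 to 34.7, 44.2 and 57.8 CPM (adjusted p = 0.00778), and Fads1 by 0.96 ± 0.29, from 39.8, 54.6 and 37.2 to 16.4, 16.4 and 34.6 CPM (adjusted p = 0.0378). In the cold these 3 came to levels that overlapped with cold controls. Mutant cold library 3, which carried the epithelial genes, was the highest of its group for Fads1 and Fads3.

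Acss2 fell by 0.92 ± 0.26 on the log2 scale (adjusted p = 0.0323), from 964, 1571 and 1036 to 548, 756 and 589 CPM. Mogat1 fell by 0.60 ± 0.15 (adjusted p = 0.0163), from 27.2, 34.5 and 27.9 to 22.1, 18.5 and 18.4 CPM. Fasn, at 27714, 39468 and 32165 and 14133, 23267 and 22641 CPM, and Acaca, at 3948, 6280.0 and 5706 and 2054, 3161 and 3071 CPM, did not overlap and were not called (-0.73 ± 0.32, adjusted p = 0.15, and -0.94 ± 0.32, adjusted p = 0.0649). Acly, Aacs, Me1, Taldo1 and Thrsp, all called in cold controls, had log2 fold changes of -0.10, 0.01, -0.15, 0.00 and -0.06 here, with overlapping groups. Others called in cold controls were positive here and overlapped without a call: Mlxipl (0.56 ± 0.29, adjusted p = 0.217), Pgd (0.54 ± 0.25, 0.167), G6pdx (0.44 ± 0.19, 0.146) and Agpat2 (0.14 ± 0.17, 0.635). Scd2, Fads3, Agpat3, Agpat5, Lpin2 and Lpin3 were called in all 12 fits that left out 1 library. The count of 12 was 8 without mutant room temperature library 2 or mutant cold library 1. Over all genes these fits called 1547 and 1466, against 2663 in the full fit. Without the 4 muscle-rich libraries all 12 genes kept their sign.

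**Figure D4:**
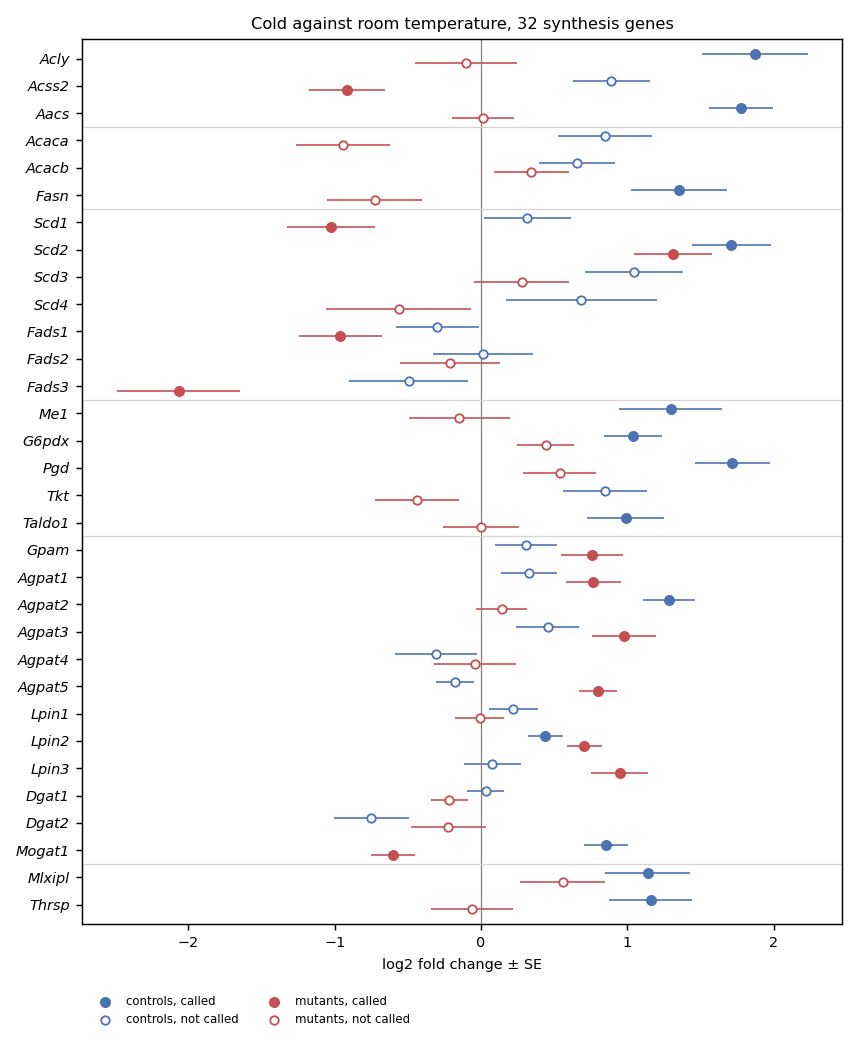
Log2 fold change of cold against room temperature (horizontal axis, point with SE) for each of the 32 genes, in controls and in libraries labelled mutant; filled points are called at adjusted p below 0.05. In controls 13 points are filled, all above 0, and in libraries labelled mutant 7 are filled above 0 and 5 below, with the acetyl-CoA and Fasn rows on opposite sides or far apart.

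The difference between the cold responses was tested directly as the interaction, the log2 response of libraries labelled mutant minus that of controls. Of the 32 genes 1 was called higher and 2 lower, against 0.295% and 0.183% of all genes. The median interaction was -0.72 against 0.02 over all genes. Aacs, at -1.76 ± 0.30 (adjusted p = 0.0318), rose in cold controls and overlapped between temperatures in libraries labelled mutant. Mogat1, at -1.46 ± 0.21 (adjusted p = 0.0161), rose in controls and fell in libraries labelled mutant. Agpat5, at 0.98 ± 0.18 (adjusted p = 0.0449), had the opposite sign, with -0.18 in controls and 0.80 in libraries labelled mutant. With the replicate block, Mogat1 was still called (adjusted p = 0.0382), and Aacs and Agpat5 were not (adjusted p = 0.0551 and 0.0807).

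The sign of the interaction was divided by role. It was negative for all 20 genes outside triglyceride assembly and positive for 8 of the 12 assembly genes, while 48.0% of all genes tested were negative. The largest negative values were those of Fasn (-2.08 ± 0.46, adjusted p = 0.0864), Acly (-1.98 ± 0.50, adjusted p = 0.124), Acss2 (-1.81 ± 0.37, adjusted p = 0.0657) and Acaca (-1.79 ± 0.46, adjusted p = 0.129), none of them called. The 4 negative assembly genes were Agpat2 (-1.15), Mogat1, Dgat1 (-0.25) and Lpin1 (-0.23). These genes were measured in the same 12 libraries and are not independent, so the signs are a description. At an unadjusted p under 0.05, 2 were higher and 14 lower, against 1869 of all 15265 genes in either direction. DESeq2 called 11 of the 32 and limma-voom 17. Over all genes these tools called 428 of 19595 and 1121 of 15265, against 73 of 15265 in edgeR. Without the 4 muscle-rich libraries, the 3 genes of the full fit kept their signs, with a median interaction of -1.51 against -1.46. Of 3 in the full fit, 6 were called without control room temperature library 1, 1 without control room temperature library 3, any room temperature library labelled mutant or mutant cold library 1, and 0 without control cold library 2 or 3.

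For Acss2, Acaca, Fasn and Mogat1, every cold control was above every room temperature control and every cold library labelled mutant was below every room temperature one. This pattern was seen in 79 of 15265 genes, or 0.518%. All these genes reached cold levels that overlapped between genotypes except Mogat1, whose highest cold control, at 17.3 CPM, was below the lowest cold library labelled mutant, at 18.4 CPM. Each cold response is measured from its own room temperature group, so a gene higher in libraries labelled mutant at room temperature and level in the cold gives a negative interaction.

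Within families, isozymes differed in level and in the comparisons that called them. Levels are compared between genes as CPM per kilobase of exon (GENCODE M21 lengths), averaged over the 12 libraries. Scd1 stood at 7275, Scd2 at 66.2, Scd3 at 2.12 and Scd4 at 0.287 CPM per kilobase. Thrsp was at 2549.8 and Fasn at 2349, followed by Tkt at 1342, Agpat2 at 1286 and Dgat2 at 1138. Among the carboxylases Acaca was at 350.5 and Acacb at 239. At room temperature in controls the ranges of the carboxylases met, at 198 ± 85.8 and 185 ± 52.2 CPM per kilobase (SD, n = 3), and in room temperature libraries labelled mutant they were at 558 ± 128 and 210.5 ± 57.9.

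Scd2 made up a larger part of the delta-9 desaturase counts in the cold groups. Its part of the counts of Scd1 and Scd2 together was 0.285 to 0.621% in room temperature controls, 0.423 to 0.577% in room temperature libraries labelled mutant, 0.878 to 1.36% in cold controls and 2.01 to 3.21% in cold libraries labelled mutant. The room temperature groups overlapped, and each cold group lay above both of them, with the cold groups apart from each other. Scd3 showed a similar order, with 13.4 ± 2.72, 15.6 ± 0.494, 22.3 ± 2.9 and 40.4 ± 15.2 counts per 100000 Scd1 counts (SD, n = 3). These ratios were not tested. The Scd genes share sequence: from 4.01% (Scd2) to 6.57% (Scd3) of their 50-base words occur in another gene, mostly of the family, and whether reads of Scd1 were counted for the scarce Scd3 and Scd4 was not tested.

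Of the enzymes for the second acyl chain, Agpat2 was the most abundant, at 1286 CPM per kilobase against 104 for Agpat3, 86.3 for Agpat1, 2.87 for Agpat5 and 1.81 for Agpat4. Agpat2 rose in room temperature libraries labelled mutant and in cold controls, and Agpat1, Agpat3 and Agpat5 in cold libraries labelled mutant. Agpat4 was between 2.70 and 5.04 CPM in every library and was called in no comparison. Lpin1, at 93.1 CPM per kilobase, exceeded Lpin2 at 3.11 and Lpin3 at 2.89, and only the 2 scarcer phosphatases were called in the full fit. For genotype at room temperature, Lpin1 was called with the replicate block and in 2 of the 12 fits that left out 1 library. For the last step, Dgat2 was at 1138 and Dgat1 at 241, and the ratio of Dgat2 to Dgat1 counts was 6.76 ± 2.42, 5.85 ± 0.526, 4.01 ± 0.189 and 5.82 ± 0.716 in room temperature controls, room temperature libraries labelled mutant, cold controls and cold libraries labelled mutant.

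**Figure D5:**
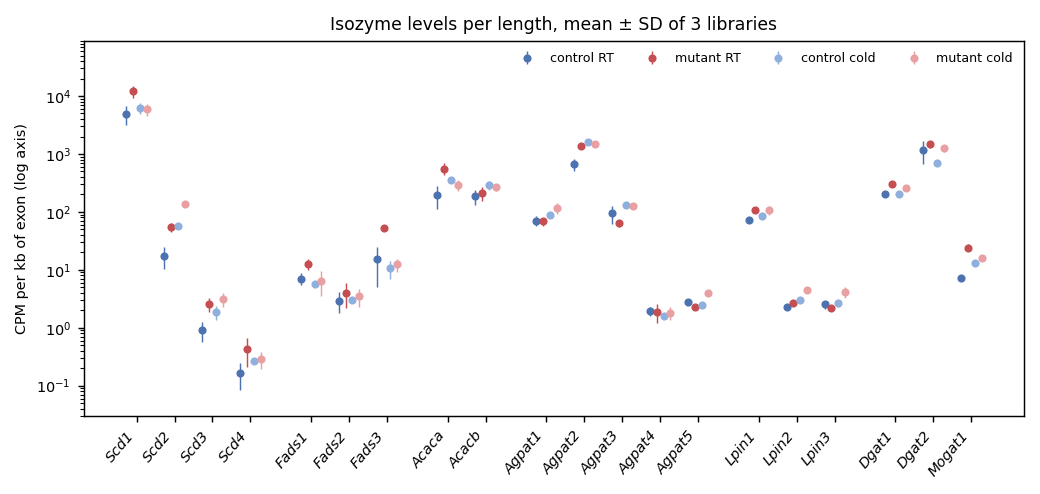
Level per length of the isozyme families (CPM per kilobase of exon, log axis), mean and SD of 3 libraries in each of the 4 groups. Scd1 is the highest at 7275 CPM per kilobase over all libraries and Scd4 the lowest at 0.287, and the Agpat and Lpin families each have an abundant isozyme and scarcer ones.

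In all, 25 of the 32 genes were called in at least 1 of the 4 comparisons, against 22.2% of all genes tested, and 7 in none: Acacb, Scd4, Fads2, Tkt, Agpat4, Lpin1 and Dgat2. Their largest absolute log2 fold change was 1.38, for Scd4 at room temperature, a gene at most at 2.16 CPM in any library. The spread between libraries of a group also differed. The median coefficient of variation over the 32 genes was 27.1% in room temperature controls, 16.8% in room temperature libraries labelled mutant, 9.40% in cold controls and 22% in cold libraries labelled mutant. Some members share sequence with other annotated genes, which can move reads between them: 49.1% of the 50-base words of Acaca occur in Gm5182, and 30.4% of those of Me1, 18.6% of those of Agpat5, 11.1% of those of Mogat1, 10.7% of those of Taldo1 and 10.5% of those of G6pdx in other genes. Of the words of Acss2, 6.53% occur in Ggt7, Acss2os or Gss, and whether the counting used strand is not stated.

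Other genes of the pathway were read from 2 further lists. Of 25 further synthesis genes, 8 were higher and 0 lower in room temperature libraries labelled mutant, against 3.92% and 2.32% of all genes. At an unadjusted p under 0.05, 12 were higher and 2 lower, against 3067 of all 15265 genes in either direction. DESeq2 and limma-voom each called 2 of the 25 lower, against 650 of 19595 and 1196 of 15265 genes. The called genes with the smallest p were Slc25a1, the citrate exporter of mitochondria (1.91 ± 0.24, adjusted p = 0.00137), Elovl6, which extends palmitate (1.66 ± 0.23, 0.00178), and Hsd17b12, a reductase of chain elongation (0.90 ± 0.13, 0.00243). In the cold, 1 was higher between genotypes, against 0.727% of all genes (Hsd17b12, 0.61 ± 0.13, adjusted p = 0.0494). In controls, cold raised 11 and lowered 0, against 4.31% and 2.31% of all genes. They were led by Acsl5, an acyl-CoA synthetase (2.67 ± 0.25, adjusted p = 0.000376), Hsd17b12 (0.91) and the pyruvate carrier gene Mpc2 (1.22). At an unadjusted p under 0.05, 14 were higher and 1 lower, against 3609 of all 15265 genes in either direction. DESeq2 and limma-voom each called 1 of the 25 lower, against 877 of 19595 and 1474 of 15265 genes.

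In libraries labelled mutant, cold raised 5 of these 25 genes and lowered 2, against 10.0% and 7.42% of all genes, so the share lowered was near that of all genes. The smallest p values were those of Acsl5 (2.77 ± 0.25, adjusted p = 8.51e-05), Slc25a1, which fell by 1.19 ± 0.24 (adjusted p = 0.0054), and Rpia, of the pentose phosphate pathway (0.89). Slc25a1 was at 588, 542 and 397 CPM in room temperature controls, 1568, 2339 and 1836 CPM in room temperature libraries labelled mutant, 1188, 1185 and 1354 CPM in cold controls and 739.5, 1132 and 646 CPM in cold libraries labelled mutant. Its interaction of -2.48 ± 0.34 (adjusted p = 0.0103) was the only call among the 25.

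Of 17 regulators, 3 were higher in room temperature libraries labelled mutant, against 3.92% of all genes: Insig1, an SREBP target that holds SREBPs back (1.69 ± 0.16, adjusted p = 0.000339), Cebpa, an adipocyte transcription factor (1.24 ± 0.22, 0.00673), and Srebf1, which encodes the SREBP of fatty acid synthesis (1.01 ± 0.19, 0.00899). Between genotypes in the cold 0 of the 17 were called in edgeR. At an unadjusted p under 0.05, 3 were higher and 2 lower, against 2343 of all 15265 genes in either direction. DESeq2 called 0 and limma-voom 2 of the 17, against 717 of 19595 and 1119 of 15265 genes. In cold controls Insig1 alone of the 17 rose (1.02 ± 0.16, adjusted p = 0.00399), against 4.31% of all genes. In cold libraries labelled mutant Ppargc1b, a coactivator, rose (0.97, adjusted p = 0.0102), while Insig1 fell by 0.70 ± 0.16 (adjusted p = 0.00945) and Cebpa by 0.91 ± 0.22 (adjusted p = 0.0145). These 1 higher and 2 lower of 17 were near the shares of all genes, 10.0% and 7.42%. The interaction of Insig1 was -1.72 ± 0.22 (adjusted p = 0.00762).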

How the data were processed

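Total RNA of 12 brown fat samples was sequenced. The authors aligned reads with STAR to mm9 and counted them per gene with featureCounts, per the submitters' processing notes; no version or setting is given there. The deposited values are raw counts per gene symbol. They were tested with edgeR 4.0.16 (R 4.3.3): filterByExpr (minimum count 10, minimum total 15), TMM factors, a robust quasi-likelihood fit with 1 coefficient for each of 4 groups, 5 two-sided contrasts, and Benjamini-Hochberg adjustment over 15265 genes, called below 0.05. The test was checked only for recovery of median log2 fold changes, on counts simulated independently for each library. CPM use TMM-scaled totals.

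The 32 genes, the 25 further synthesis genes, the 17 regulators and the marker lists were chosen with earlier results of these data known. Every member is accounted for; of the other lists, the 3 called genes with the smallest p in each contrast are named. Promoters and lengths come from RefSeq (GRCm38.p6) and GENCODE M21, another build than mm9.

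Replicate numbers are shared by the groups without a stated meaning. Deviations from the group means correlated between same-numbered libraries by 0.165, 0.719 and 0.488 for genotype at room temperature and by 0.142, 0.647 and 0.456 for cold in controls. Between genotypes in the cold the correlations were -0.031, 0.206 and 0.491. For cold in libraries labelled mutant they were 0.027, 0.151 and 0.577. The main fit does not pair libraries, so its counts leave any pairing out, and fits with the replicate block are given beside it. Libraries numbered 3 held from 0.590 to 1.84% muscle counts, and control room temperature library 1 held 2.52%. Their part in the correlations was not tested. Alternatives were DESeq2 1.42.0, its size factors, limma-voom (limma 3.58.1), other filters, a fit that was not robust, the replicate block, only the groups compared, each library left out, and the 4 muscle-rich libraries left out.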

Additional observations from a re-analysis of the deposited data

Results flagged for a closer look

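Of the 32 genes, 3 had a cold response that differed between genotypes by the test of the difference itself (edgeR interaction, mutant response minus control response, adjusted over all genes tested). Mogat1 had an interaction of -1.46 ± 0.21 (SE; adjusted p = 0.0161): it was higher in each cold control, at 14.5, 17.2 and 17.3 CPM against 10.3, 8.79 and 7.98, and was lower in each cold library labelled mutant, at 22.1, 18.5 and 18.4 CPM against 27.2, 34.5 and 27.9. It was called in 10 of 12 fits that left out 1 library and with the replicate block. Aacs had -1.76 ± 0.30 (adjusted p = 0.0318), called in 4 of those 12 fits. Agpat5 had 0.977 (SE 0.18; adjusted p = 0.0449), called in 2 of 12. With the replicate block neither Aacs nor Agpat5 was called (adjusted p = 0.0551 and 0.0807). The 3 genes kept the sign of the interaction in all 20 alternatives run for it. Every fit of the interaction rests on the room temperature groups, whose lens and Lep and Retn transcripts also separated by genotype, and their part was not tested.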

How the results depend on the processing

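Every called gene kept the sign of its log2 fold change in every alternative run for its comparison. The fit without the 4 muscle-rich libraries, an alternative chosen after seeing the data, leaves 1 room temperature control library, so its counts are not given. For genotype at room temperature (14 called), the count was 6 with only the groups compared and 5 to 17 with 1 library left out. Over all genes these fits called 552, and 395 to 1512, against 952 in the full fit. For genotype in the cold (2 called), the count was 5 with DESeq2, 6 with limma-voom and 1 without the robust option. It was 1 with only the groups compared and 0 to 3 with 1 library left out. Over all genes the last 2 kinds of fit called 102, and 28 to 203. For cold in controls (13 called), the count was 21 with limma-voom and 5 to 14 with 1 library left out. Without 1 library, 313 to 1795 of all genes were called. For cold in libraries labelled mutant (12 called), the count was 7 with only the groups compared. With 1 library left out it was 8 to 13. Over all genes these fits called 1633, and 1466 to 3630, against 2663 in the full fit. For the interaction (3 called), the count was 11 with DESeq2, 17 with limma-voom and 0 to 6 with 1 library left out. Without 1 library, 13 to 204 of all genes were called. Fits without a library or with only the groups compared have fewer samples to estimate the spread, and otherwise the cause was not tested. The tools also differed over all genes. For genotype in the cold, edgeR, DESeq2 and limma-voom called 171, 717 and 1119 genes. For the interaction they called 73, 428 and 1121, and for cold in controls edgeR called 1010 and limma-voom 3402.

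With the replicate block, 13, 0, 11, 11 and 1 genes were called in the same order, of which 12, 0, 10, 11 and 1 were among the calls without it. The blocked calls lost were Fads3 and Pgd at room temperature, Scd2 and Agpat5 between genotypes in the cold, Me1, Lpin2 and Mlxipl in cold controls, Fads1 in cold libraries labelled mutant (adjusted p = 0.0506), and Aacs and Agpat5 in the interaction. Scd3, Scd4, Fads2, Lpin3 and Agpat4 were below 20 CPM in every library, and whether their low counts limit their tests was not tested.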
